A study of Homo sapiens with 24 samples.

Results

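Protocadherins, the largest family of cadherin-type adhesion proteins, were followed in HEK293T cells after knockdown and overexpression of the long noncoding RNA *FMR4*. All probe sets were taken whose gene symbols in the array's probe annotation all begin with PCDH, which gave 46 of the 21214 probe sets with a named gene. Of these, 14 belong to the alpha cluster, 18 to the beta cluster and 1 (*PCDHGB4*) to the gamma cluster, and 13 to protocadherins outside the clusters. A single gene is given for 43 of them. The other 3 are probe set 8108633, whose annotation lists 15 alpha genes, and 2 probe sets shared by *PCDH11X* and *PCDH11Y*.

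HEK293T is a human embryonic kidney line that carries the SV40 large T antigen. Cells received CTRL siRNA or FMR4 siRNA (40 nM, with Lipofectamine RNAiMAX), or CTRL pcDNA3.1, the vector without insert, or FMR4 pcDNA3.1 (0.5 μg, with Lipofectamine 2000CD). RNA was taken at 6 and 24 h, which makes 8 conditions with 3 arrays each and 24 arrays in all. Each array was a biological replicate pooled from 3 technical ones, and whether the replicates were separate cultures on separate days is not given, so the p-values measure the spread between these pools. Knockdown and overexpression came with different nucleic acids and reagents, so each was compared with its own control. No named probe set carries the symbol FMR4, and the extent of the knockdown and overexpression was not read from these arrays.

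Clustered protocadherins are encoded in tandem on chromosome 5. Each variable first exon has a promoter of its own, neurons switch on different sets of them, and the proteins give neurons an identity by homophilic binding. Most of these promoters carry a conserved element with a CGCT core, to which CTCF binding has been tied, and DNA methylation and cohesin take part in the choice of promoter. Protocadherins outside the clusters, such as the delta2 members *PCDH8*, *PCDH10*, *PCDH17*, *PCDH18* and *PCDH19*, are single genes that act in cell sorting, axon growth and actin regulation, and *PCDH19* is known as an epilepsy gene.

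The promoter sequences are shown first, because they hold an element that most of the clustered genes share. RefSeq promoters (GRCh38.p14, 250 bases before to 50 after the gene start) were found for 10 of the 12 alpha genes with a probe set of their own, 14 of 18 beta genes, *PCDHGB4* and 9 of 11 other genes. No entry was found for *PCDHA3*, *PCDHA13*, *PCDHB6*, *PCDHB11*, *PCDHB17P*, *PCDHB18P*, *PCDH10* and *PCDH20*. The letters GNCGCTG were searched on both strands. They stood on the gene's strand in 6 of 10 alpha promoters, 12 of 14 beta promoters, that of *PCDHGB4* and 0 of 9 others, against 14.7% of all 35116 promoters. On either strand the counts were 6, 12, 1 and 2, against 25.3% of all. The match was absent from the promoters of *PCDHA4*, *PCDHA7*, *PCDHA11*, *PCDHA12*, *PCDHB1* and *PCDHB14*, several of which are also described below. A link between the match and the differences in expression was not tested. The shorter CGCTG, which GNCGCTG contains, was on either strand in 7 alpha, 12 beta, 1 gamma and 7 other promoters and in 48.0% of all. Windows of 40 bases around the match, 5′ to 3′ on the gene's strand with GNCGCTG in capitals, are given for 3 alpha and 3 beta genes described below and for the gamma gene:
PCDHA6 (chr5:140827891-140827930): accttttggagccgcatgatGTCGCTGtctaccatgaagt
PCDHA8 (chr5:140841124-140841163): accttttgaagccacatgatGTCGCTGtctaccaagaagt
PCDHA10 (chr5:140855835-140855874): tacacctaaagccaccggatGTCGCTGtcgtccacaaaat
PCDHB7 (chr5:141172560-141172599): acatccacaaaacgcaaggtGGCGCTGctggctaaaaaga
PCDHB9 (chr5:141187068-141187107): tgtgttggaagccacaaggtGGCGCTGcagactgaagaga
PCDHB15 (chr5:141245308-141245347): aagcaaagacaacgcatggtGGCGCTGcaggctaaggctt
PCDHGB4 (chr5:141387611-141387650): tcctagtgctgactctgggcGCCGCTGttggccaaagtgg

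The alpha windows read GTCGCTG, the beta windows GGCGCTG and the gamma window GCCGCTG. In the 6 alpha promoters the match began between -57 and -40 bases from the start (median -46.0), and in the 12 beta promoters between -81 and 1 (median -62.5). The 10 alpha promoters were low in G and C, with a median of 36.0% (33.7 to 40.3%), and the 14 beta promoters had 40.8% (33.3 to 46.3%). The 10 promoters of 9 other genes had 56.8% (48.0 to 71.0%), close to the 58.7% of all promoters.

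*PCDH18* and *PCDH19*, both called between 6 and 24 h below, have promoters of the other kind. They are printed whole, 5′ to 3′ on the minus strand, with CGCTG in capitals:
PCDH18 (chr4:137532445-137532744): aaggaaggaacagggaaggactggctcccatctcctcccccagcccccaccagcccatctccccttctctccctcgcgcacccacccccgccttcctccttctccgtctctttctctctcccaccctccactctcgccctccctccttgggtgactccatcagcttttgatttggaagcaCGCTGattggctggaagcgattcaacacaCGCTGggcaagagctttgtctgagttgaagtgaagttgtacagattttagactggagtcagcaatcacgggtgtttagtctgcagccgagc
PCDH19 (chrX:100410224-100410523): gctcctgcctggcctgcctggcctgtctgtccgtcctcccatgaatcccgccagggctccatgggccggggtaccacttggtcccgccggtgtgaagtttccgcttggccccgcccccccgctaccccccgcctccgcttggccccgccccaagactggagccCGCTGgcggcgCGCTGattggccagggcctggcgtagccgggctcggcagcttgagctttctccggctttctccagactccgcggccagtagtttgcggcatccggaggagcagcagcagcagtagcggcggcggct

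Each held CGCTG at 2 places, without the longer GNCGCTG. The *PCDH19* promoter had 71.0% G and C with 26 CpG dinucleotides, and that of *PCDH18* 57.0% with 10.

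Levels are log2 expression values, normalized by the authors with GC-RMA on the Affymetrix Human Gene 1.0 ST array, as the labels name it (the study's methods name a later version). As a guide to background, 432 probe sets of olfactory receptor and keratin-associated protein genes, mostly silent in this cell type, had an upper quartile of 5.98 and a 95th percentile of 7.71. Probe sets differ in affinity, so the guide does not measure any member. Over the 24 arrays, 10 of 14 alpha, 2 of 18 beta, the gamma and 10 of 13 other probe sets had a mean above the upper quartile, 23 in all. The alpha probe sets not above it were 8180198 and 8180276 of *PCDHA2* (5.06 and 5.48), *PCDHA11* (5.66) and 8108633 (5.97). Probe set 8108633, annotated to many alpha genes, ranged from 5.82 to 6.15. Its mean thus cannot be told from background by this guide. Above the 95th percentile were 4 alpha, 0 beta, the gamma and 5 other probe sets. The alpha ones were *PCDHA3* (mean 8.23, range 8.03 to 8.45), *PCDHA8* (7.91, 7.74 to 8.34), *PCDHA5* (7.80, 7.48 to 8.07) and *PCDHA13* (7.72, 7.52 to 7.93). *PCDHGB4* had a mean of 7.94 (7.54 to 8.22). The others were *PCDH10* (10.23, 9.83 to 11.58), *PCDH7* (8.83, 8.66 to 9.01), *PCDH17* (8.73, 8.48 to 8.94), *PCDH18* (7.86, 7.12 to 8.30) and *PCDH20* (7.85, 7.62 to 8.12). The beta probe sets were low, with means from 3.77 (*PCDHB4*) to 6.20 (*PCDHB15*), where low readings cannot be told from background. *PCDH15*, a protein of the hair cells' tip links, was at 4.58. Of markers of the line itself, 7 of 8 HEK293-like genes were above the 95th percentile, as were 0 of 4 blood, 0 of 3 liver, 1 of 4 fibroblast, 1 of 3 skin epithelium, 1 of 7 neuron and 2 of 6 neural precursor and glia markers.

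**Figure D1:**
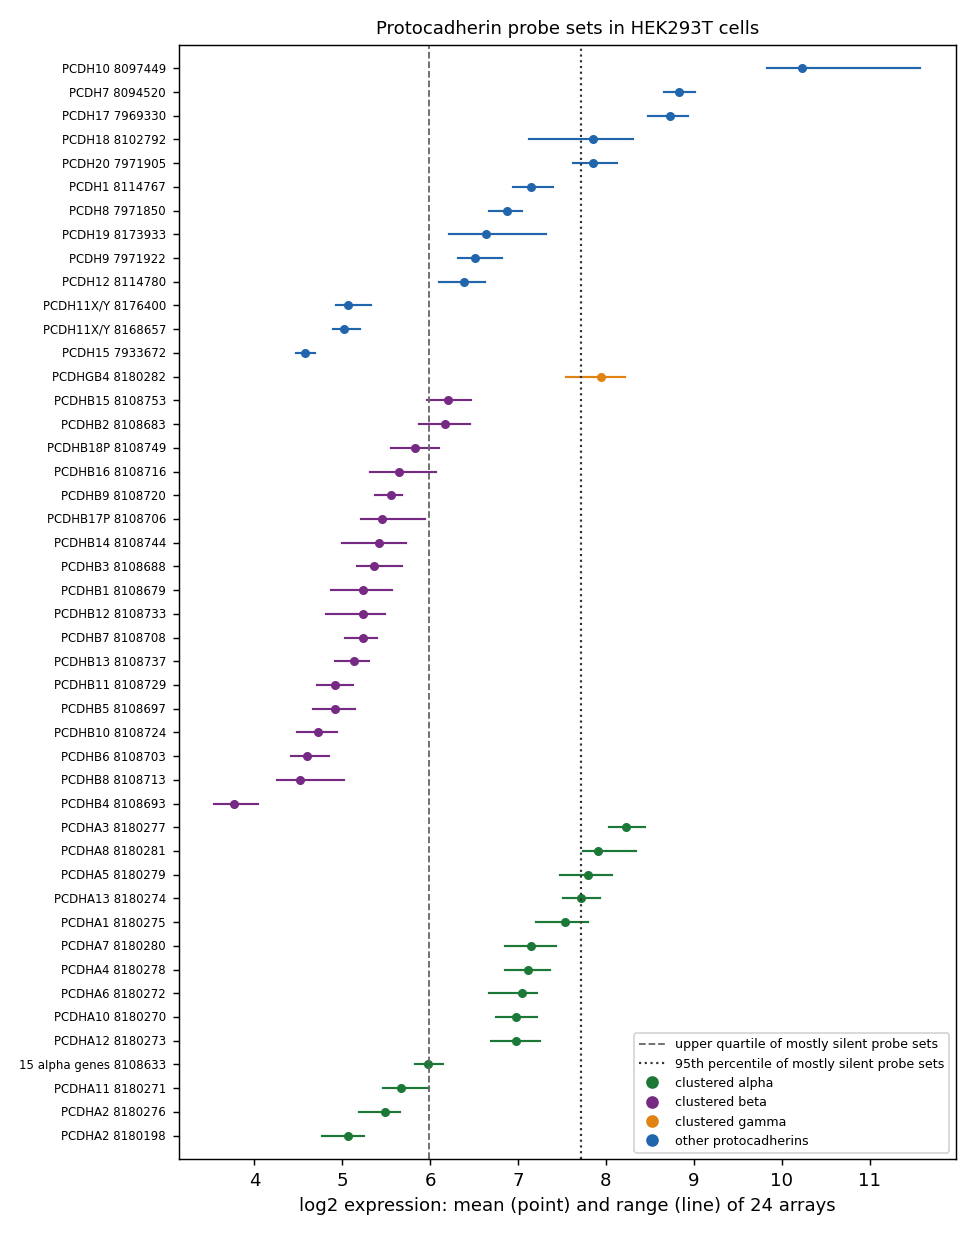
Mean (point) and range (line) over 24 arrays of each of the 46 protocadherin probe sets, on the log2 scale and coloured by class, with the upper quartile (dashed, 5.98) and 95th percentile (dotted, 7.71) of 432 mostly silent probe sets. Beta probe sets lie mostly below the dashed line, and *PCDH10* has the widest range.

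Array medians were between 7.43 and 7.53. FMR4 siRNA 6 h replicate 3 stood apart from its group, with the lowest estimated array weight of the 24 (0.154, where the highest was 2.28). Replicate 1 of the same group had the next lowest weight (0.405), so the group as a whole was spread out. Results that rest on replicate 3 are given with and without it.

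No protocadherin passed the test after knockdown or overexpression of *FMR4* at either time (limma, Benjamini-Hochberg adjustment over all 21214 named probe sets, threshold 0.05). Of 46 members, 0 were called in the knockdown at 6 h, where 0.0566% of all probe sets were called, and 0 at 24 h, where 5.59% were. In the overexpression, 0 members and 0% of all probe sets were called at either time. At an unadjusted p under 0.05 there were 4, 3, 1 and 4 members in the knockdown at 6 and 24 h and the overexpression at 6 and 24 h, against 3.89%, 15.6%, 2.16% and 3.33% of all probe sets. Members whose FMR4 arrays did not overlap the CTRL arrays numbered 4, 9, 1 and 5, against 5.75%, 21.4%, 7.64% and 11.8% of all. The median standard error of a member's log2 difference was 0.09. The difference in effect between times was called for 0 members in the knockdown (1.15% of all) and 0 in the overexpression (0% of all). The overexpression effect minus the knockdown effect was called for 0 members at 6 h (0% of all) and 0 at 24 h (1.98% of all). At an unadjusted p under 0.05 these 4 comparisons held 3, 3, 4 and 3 members, against 10.9%, 1.88%, 3.24% and 11.3% of all probe sets.

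At 6 h most alpha probe sets lay lower after FMR4 siRNA, though none was called. The log2 difference was negative in 12 of 14, with a median of -0.14. The exceptions were *PCDHA13* (0.01) and probe set 8108633 (0.04 ± 0.07), which is annotated to many alpha genes. The shared probe set thus did not show the fall. *PCDHA2* is counted through probe sets 8180198 and 8180276. The median was -0.03 in the beta class, 0.01 in the others, -0.02 over all named probe sets and 0.00 over the mostly silent ones. By array, the median alpha deviation from the CTRL mean was -0.07, -0.22 and -0.15 in the 3 FMR4 siRNA arrays, and between -0.06 and 0.03 in the CTRL arrays. All 3 FMR4 arrays were below the CTRL arrays. Leaving out each array in turn kept the median between -0.18 and -0.09. At 24 h the median was -0.01, with arrays at -0.01, 0.05 and 0.00 that overlapped the CTRL arrays. In the overexpression it was 0.04 at 6 h and -0.04 at 24 h. The CTRL siRNA 6 h arrays were also high for alpha in comparisons without FMR4 arrays. CTRL pcDNA3.1 was below them at 6 h in 12 of 14 alpha probe sets (median -0.09). CTRL siRNA at 24 h was below them in 11 of 14 (median -0.08). The part of these CTRL arrays in the knockdown median was not tested. The alpha probe sets share a locus and sequence, so the median is a description and was not tested. Alpha probe sets did not vary together strongly within conditions: over the 24 arrays the median r of their deviations from the group means was 0.11 in 91 pairs, beside 0.08 in the mostly silent set.

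**Figure D2:**
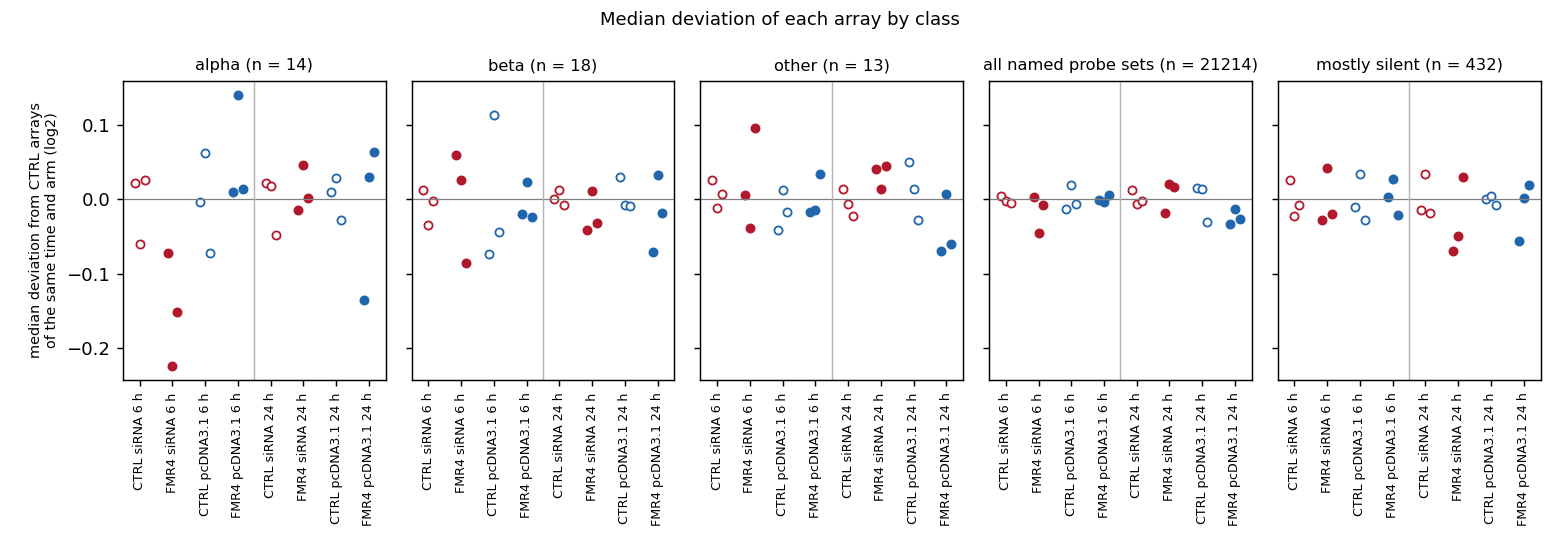
Median log2 deviation of single arrays from their CTRL mean, at the same time and with the same nucleic acid, over the alpha, beta and other protocadherin probe sets, all named probe sets and the mostly silent ones; red is siRNA, blue is plasmid, open is CTRL and filled is FMR4. The 3 alpha points for FMR4 siRNA at 6 h (-0.07, -0.22 and -0.15) lie below their CTRL points.

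The alpha genes of lowest p were *PCDHA6* and *PCDHA8*, whose promoter windows are above. *PCDHA6* (probe set 8180272, chr5:140827960-141012347 in RefSeq) was at 7.22, 6.98 and 7.12 in CTRL siRNA and at 6.83, 6.67 and 6.96 in FMR4 siRNA at 6 h. The groups did not overlap, and the difference was -0.29 ± 0.08 (SE; limma adjusted p = 0.583). Without FMR4 siRNA 6 h replicate 3 it was -0.36 with a limma adjusted p of 0.0136, and with array weights -0.41 with 0.0242, both past the threshold. No other array left out made the call. Over the fits with 1 array left out the difference ranged from -0.36 to -0.22, with limma adjusted p up to 0.9999. *PCDHA8* was at 8.34, 7.90 and 7.97 in CTRL siRNA and 7.74, 7.79 and 7.77 in FMR4 siRNA, a difference of -0.30 ± 0.09 (limma adjusted p = 0.729). Here CTRL siRNA replicate 1 stood above the rest, and without it the difference was -0.17 (limma adjusted p = 1.00). *PCDHA12* differed by -0.22 ± 0.08 with overlapping groups. The beta gene below an unadjusted p of 0.05, chosen after its values were seen, was *PCDHB7* at -0.15. Among the others *PCDH10*, a delta2 protocadherin that recruits the actin-regulating WAVE complex, gave the lowest p. Its FMR4 siRNA arrays read 10.08, 10.64 and 11.58 and the CTRL siRNA arrays 10.93, 10.93 and 11.29. The difference of -0.28 ± 0.20 rested on single arrays. It was -0.69 (limma adjusted p = 0.00159) without FMR4 siRNA 6 h replicate 3 and 0.06 (adjusted p = 0.969) without replicate 1. *PCDH12*, a vascular protocadherin, differed by 0.12 and *PCDH15* by -0.08. Without FMR4 siRNA 6 h replicate 3 the number of members called in the knockdown at 6 h was 2, where 4.51% of all probe sets were called.

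At 24 h the lowest p in the knockdown belonged to *PCDHB1* and *PCDH18*, in opposite directions. *PCDHB1* was at 5.47, 5.47 and 5.36 in CTRL siRNA and 5.18, 4.99 and 5.25 in FMR4 siRNA, without overlap, a difference of -0.30 ± 0.12 (limma adjusted p = 0.199) at a level under the upper quartile set by the mostly silent probe sets. *PCDH18* was at 8.01, 7.89 and 7.95 in CTRL siRNA and 8.30, 8.27 and 8.14 in FMR4 siRNA, also without overlap, a difference of 0.29 ± 0.12 (limma adjusted p = 0.22). Fitted to the 12 arrays of 24 h alone, both passed, with limma adjusted p of 0.02 and 0.0198. *PCDH18* also passed with its 6 arrays fitted alone (0.0456) and with array weights (0.0392). *PCDH20* differed by 0.19 ± 0.09 and *PCDH17* by 0.14 ± 0.08 without being called, and *PCDHA2* (probe set 8180276) by 0.13 and *PCDHB9* by -0.09. The other *PCDHA2* probe set, 8180198, had a mean of 5.05 in CTRL and 5.11 in FMR4 siRNA. Both *PCDHA2* probe sets and *PCDHB9* also lay under the upper quartile of the mostly silent set. The 95% intervals of *PCDH18* and *PCDH17* ran from 0.04 to 0.54 and from -0.02 to 0.31.

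In the overexpression, *PCDHA4* had the lowest p, and its difference had opposite signs at the 2 times. At 6 h it was at 7.05, 6.97 and 6.85 in CTRL pcDNA3.1 and 7.37, 7.24 and 7.22 in FMR4 pcDNA3.1, a difference of 0.32 ± 0.08 without overlap. The limma adjusted p was 1.00, in a comparison with 0% of all probe sets called, and 0.0423 when adjusted over the 4 knockdown and overexpression comparisons together. That pooled adjustment takes in the small p-values of the knockdown at 24 h, where 5.59% of all probe sets were called. With it 0.0189% of all were called in the overexpression at 6 h. At 24 h the CTRL arrays read 7.24, 7.30 and 7.23 and the FMR4 arrays 6.93, 7.11 and 7.12, a difference of -0.20 ± 0.08. The CTRL arrays were thus higher at 24 h than at 6 h, and the FMR4 arrays lower. *PCDHB15* differed by 0.18 ± 0.10 and *PCDHA7* by 0.17 ± 0.10 at 6 h. At 24 h *PCDHA12* differed by -0.23 ± 0.08 and *PCDHA10* by 0.21 ± 0.10. Outside the clusters *PCDH15* (-0.10), *PCDH7* (0.08) and probe set 8168657 of *PCDH11X* and *PCDH11Y* (0.07) led at 6 h. *PCDH7* (-0.12), *PCDH9* (-0.13) and *PCDH17* (-0.09) led at 24 h. With 1 array left out at a time, *PCDHA10* at 24 h ranged from 0.11 to 0.27 and *PCDH9* from -0.18 to -0.05, and at 6 h *PCDH7* ranged from 0.02 to 0.12 and probe set 8168657 from 0.03 to 0.12. The pseudogene *PCDHB17P*, chosen after its values were seen, differed by -0.30 at 24 h with overlapping groups. None of these was called.

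**Figure D3:**
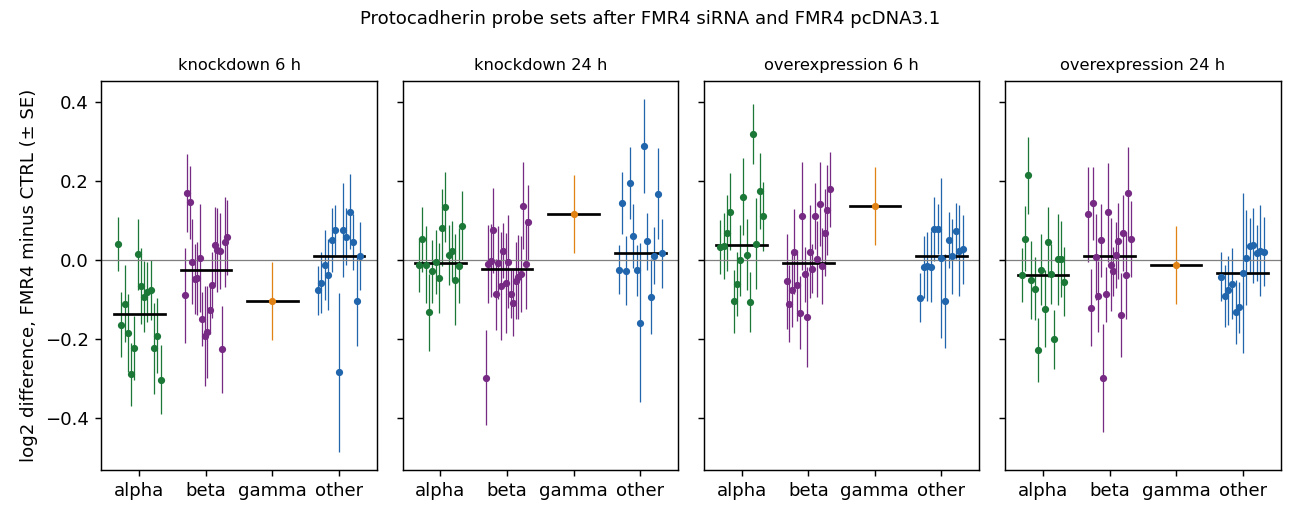
Log2 difference, FMR4 minus CTRL, of each protocadherin probe set (points with ± SE from limma) by class in the 4 knockdown and overexpression comparisons; black bars are class medians. The alpha median at 6 h after FMR4 siRNA is -0.14, the other alpha medians lie between -0.04 and 0.04, and no point was called.

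**Figure D4:**
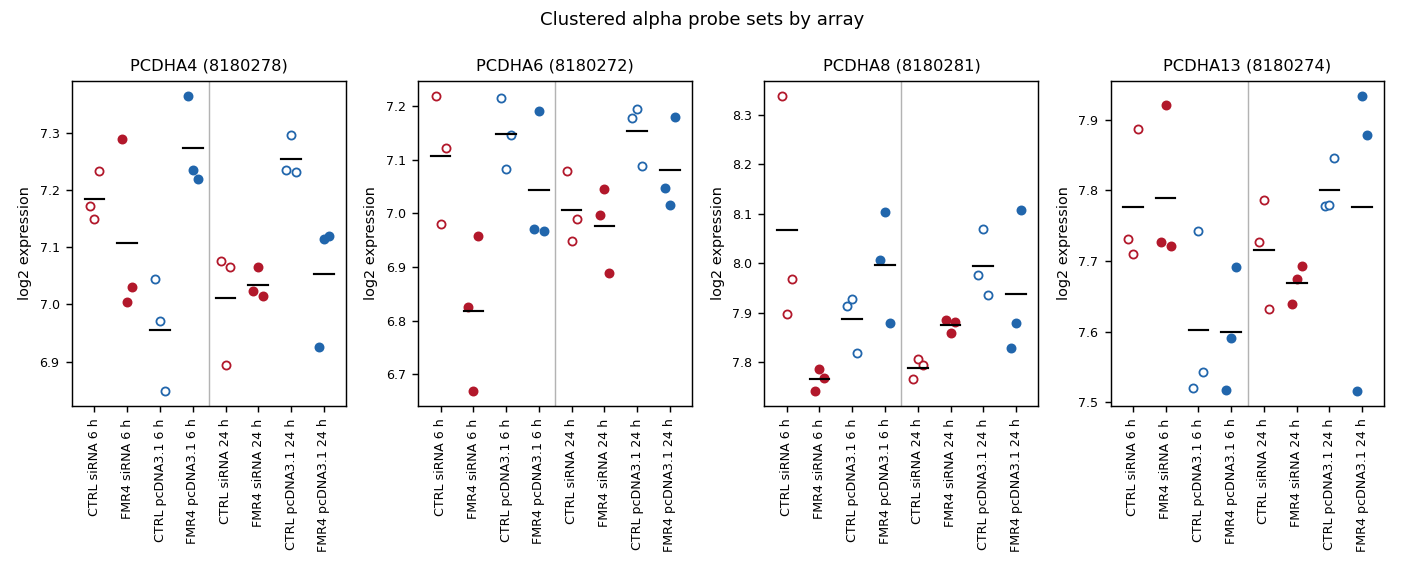
Log2 expression of 4 alpha probe sets on each of 24 arrays, by condition, with the group mean as a bar; red is siRNA, blue is plasmid, open is CTRL and filled is FMR4. *PCDHA4* in plasmid arrays shows the FMR4 arrays above CTRL at 6 h and below at 24 h, and *PCDHA8* shows CTRL siRNA 6 h replicate 1 at 8.34.

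Protocadherins passed the test between times after transfection, and most that did lay outside the clusters. *PCDH10* also passed between the control transfections at 6 h, and calls for the difference in time change between plasmid and siRNA are given below. Members called between 24 and 6 h were 4 of 46 in CTRL siRNA, 3 in FMR4 siRNA, 2 in CTRL pcDNA3.1 and 3 in FMR4 pcDNA3.1. Of 13 probe sets outside the clusters, 1 was higher and 2 lower in CTRL siRNA, FMR4 siRNA and FMR4 pcDNA3.1, and 1 was lower in CTRL pcDNA3.1. Of 33 clustered ones, 1 was lower in CTRL siRNA, 1 was higher in CTRL pcDNA3.1 and 0 were called in the FMR4 conditions. The difference between these classes was not tested. The shares of all probe sets called were 17.9%, 16.2%, 5.9% and 6.34%. The members' shares lie near or below this background in every condition. No beta probe set was called in any of them, but only 2 of 18 had a mean above the upper quartile of the mostly silent set. Time after transfection and time in culture cannot be told apart in this design. In FMR4 siRNA the number called was 7 without 6 h replicate 1, where 23.7% of all probe sets were called. It was 5 without 6 h replicate 3 (12.9% of all) or 24 h replicate 3 (15.3% of all). In bulk RNA, fewer expressing cells and less RNA per cell cannot be told apart.

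*PCDH19* was lower at 24 h in all 4 conditions. It read 7.13, 7.07 and 7.11 in CTRL siRNA at 6 h and 6.33, 6.23 and 6.26 at 24 h. In FMR4 siRNA the values were 6.68, 7.0 and 7.32 and then 6.31, 6.5 and 6.5. In CTRL pcDNA3.1 they were 6.92, 6.77 and 6.74 and then 6.42, 6.22 and 6.28. The FMR4 pcDNA3.1 arrays went from 7.02, 6.60 and 6.89 to 6.31, 6.42 and 6.27. In each condition all 6 h arrays were above all 24 h arrays. The differences were -0.83, -0.56, -0.50 and -0.50 (limma adjusted p = 5.88e-05, 0.00192, 0.0109 and 0.00991), the first a 1.78-fold fall. Averaged over conditions, a comparison added after the values were seen, *PCDH19* fell by 0.60 ± 0.06 (limma adjusted p = 8.26e-08, where 30.5% of all probe sets were called). In the plasmid conditions the call rested on few arrays. It was lost in CTRL pcDNA3.1 without 6 h replicate 1 (-0.45, adjusted p = 0.073) or 24 h replicate 2 (-0.46, 0.0666), and in FMR4 pcDNA3.1 without 6 h replicate 1 (-0.41, 0.0705) or 24 h replicate 3 (-0.47, 0.0601). In FMR4 siRNA it was -0.40 without 6 h replicate 3 (limma adjusted p = 0.0137), and the call was lost when only its own arrays were fitted (0.114).

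*PCDH18* went the other way. In CTRL siRNA it read 7.26, 7.63 and 7.38 at 6 h and 8.01, 7.89 and 7.95 at 24 h. FMR4 siRNA arrays read 7.79, 7.58 and 7.12 and then 8.30, 8.27 and 8.14. CTRL pcDNA3.1 arrays read 7.73, 7.76 and 7.88 and then 7.996, 8.20 and 8.18, and FMR4 pcDNA3.1 arrays 7.54, 7.69 and 7.84 and then 8.20, 8.13 and 8.07. The 24 h arrays were above the 6 h arrays in each condition. It rose by 0.53 in CTRL siRNA, 0.74 in FMR4 siRNA and 0.44 in FMR4 pcDNA3.1 (limma adjusted p = 0.00399, 0.000288 and 0.0279). The difference of 0.33 in CTRL pcDNA3.1 was not called (adjusted p = 0.103). In FMR4 pcDNA3.1 the call was lost without 6 h replicate 1 (0.37, adjusted p = 0.139) or replicate 2 (0.44, 0.0747), or without 24 h replicate 1 (0.41, 0.101), replicate 2 (0.44, 0.0698) or replicate 3 (0.48, 0.0697), and with all probe sets tested (0.0571). In FMR4 siRNA it was 0.55 without 6 h replicate 3 (limma adjusted p = 0.00111), and the call was lost when only its own arrays were fitted (0.0814). Over all conditions *PCDH18* rose by 0.51 ± 0.06 (limma adjusted p = 1.17e-06). Among the FMR4 siRNA 6 h arrays, replicate 3 was the highest for *PCDH10* and *PCDH19* and the lowest for *PCDH18*, and replicate 1 had the opposite order. The part of that array's standing apart in these values was not tested.

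*PCDH10* stood high only in siRNA arrays at 6 h. CTRL siRNA read 10.93, 10.93 and 11.29 at 6 h and 10.10, 10.22 and 10.11 at 24 h. The CTRL pcDNA3.1 arrays read 9.999, 10.10 and 9.99 and then 10.07, 9.88 and 9.90, and those of FMR4 pcDNA3.1 10.05, 10.01 and 10.04 and then 9.95, 9.97 and 9.83. The FMR4 siRNA arrays, given above for 6 h, were at 9.94, 9.999 and 10.01 at 24 h. Apart from FMR4 siRNA 6 h replicate 1, every siRNA 6 h array was above every array of the other 6 conditions. *PCDH10* fell by 0.91 ± 0.20 in CTRL siRNA and by 0.78 ± 0.20 in FMR4 siRNA (limma adjusted p = 0.00333 and 0.00985), while the differences in CTRL and FMR4 pcDNA3.1 were -0.08 and -0.12 (adjusted p = 0.871 and 0.81). The time change in plasmid minus that in siRNA, a comparison added after the values were seen, was 0.75 ± 0.20 (limma adjusted p = 0.0217, where 10.8% of all probe sets were called). Leaving out any array kept this call. Averaged over all conditions the *PCDH10* difference was -0.47 ± 0.10 (limma adjusted p = 0.00093). That average joins the falls in siRNA with the small, uncalled differences in plasmid, and so describes neither. In it 2 of 46 members were called higher and 2 lower, where 30.5% of all probe sets were called. In FMR4 siRNA the fall rested in large part on 6 h replicate 3, without which the difference was -0.38 (limma adjusted p = 0.0344). There the call was lost in a fit to the siRNA arrays alone (adjusted p = 0.0792) or to the arrays compared (0.237).

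Between the 2 control transfections at 6 h, *PCDH10* was the 1 member called, where 3.32% of all probe sets were. It was 2.03-fold lower in CTRL pcDNA3.1 than in CTRL siRNA, a log2 difference of -1.02 ± 0.20 (limma adjusted p = 0.017). The call was lost without CTRL siRNA replicate 3 (-0.90, adjusted p = 0.106) or CTRL pcDNA3.1 replicate 1 (-1.01, 0.0642) or replicate 3 (-1.002, 0.0903), and when the 6 h arrays were fitted alone (0.154). Without CTRL siRNA replicate 2 there were 2 members called, where 2.63% of all probe sets were. At 24 h 0 members were called (4.4% of all), with 6 at an unadjusted p under 0.05, against 16.5% of all. The controls share the CTRL arrays of the other comparisons, so these values are not separate evidence.

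**Figure D5:**
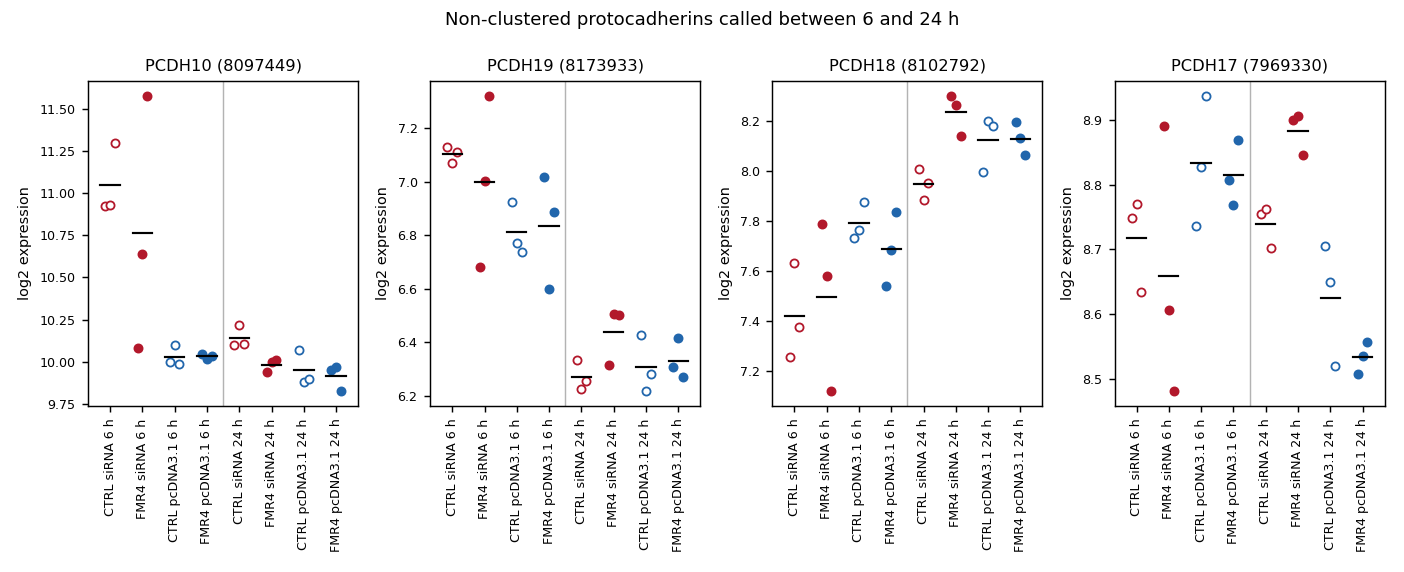
Log2 expression of 4 protocadherins outside the clusters on each of 24 arrays, 6 h left of the grey line and 24 h right of it, with the group mean as a bar; red is siRNA, blue is plasmid, open is CTRL and filled is FMR4. *PCDH10* is high on siRNA arrays at 6 h alone, up to 11.58, *PCDH19* falls and *PCDH18* rises between the times, and *PCDH17* lies lower in plasmid arrays at 24 h.

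*PCDH17*, a delta2 protocadherin of synapses and axons, differed in its time change between plasmid and siRNA transfections. FMR4 pcDNA3.1 arrays read 8.81, 8.77 and 8.87 at 6 h and 8.51, 8.54 and 8.56 at 24 h, without overlap, a fall of 0.28 ± 0.08 (limma adjusted p = 0.0323). CTRL pcDNA3.1 arrays read 8.74, 8.83 and 8.94 and then 8.71, 8.65 and 8.52, a difference of -0.21 (adjusted p = 0.122). In siRNA the differences were 0.02 in CTRL (adjusted p = 0.899) and 0.22 in FMR4 (0.053). The time change in plasmid minus that in siRNA was -0.37 ± 0.08 (limma adjusted p = 0.00604), and it held with any array left out. The call within FMR4 pcDNA3.1 was lost without any 1 of its 6 arrays, with adjusted p from 0.0571 without 6 h replicate 2 to 0.132 without 6 h replicate 3 and differences of -0.30 and -0.25. It was also lost with all probe sets tested (0.0568).

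Among the clustered genes, single alpha members were called with time. *PCDHA4* rose by 0.30 ± 0.08 in CTRL pcDNA3.1 (limma adjusted p = 0.02) and differed by -0.22 in FMR4 pcDNA3.1 (0.0873). That call was lost without CTRL pcDNA3.1 6 h replicate 2 (0.31, adjusted p = 0.0522) or replicate 3 (0.25, 0.0941), or without 24 h replicate 2 (0.28, 0.0926) or replicate 3 (0.31, 0.0507). *PCDHA8* fell by 0.28 ± 0.09 in CTRL siRNA (limma adjusted p = 0.0301), from the 6 h arrays given above to 7.77, 7.81 and 7.79. It was -0.14 (adjusted p = 0.242) without CTRL siRNA 6 h replicate 1, and the call was also lost without 24 h replicate 1 (-0.27, 0.0883), replicate 2 (-0.29, 0.06) or replicate 3 (-0.28, 0.0716). It was lost too in fits to the arrays compared (0.0771) or to the siRNA arrays (0.0813), and with all probe sets tested (0.0517). *PCDHA3* rose by 0.13 ± 0.04 over all conditions (limma adjusted p = 0.0126), with 4 of 4 conditions positive, from 0.01 in CTRL siRNA to 0.23 in FMR4 pcDNA3.1.

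The alpha medians over time, which were not tested, had opposite signs in the control transfections. In CTRL pcDNA3.1 14 of 14 alpha probe sets were higher at 24 h, with a median of 0.13. Of all 21214 named probe sets 12653 were higher there (median 0.03), and of the 432 mostly silent ones 255 (0.02). In CTRL siRNA 3 of 14 alpha probe sets were higher, with a median of -0.08. Beside them were 5 of 18 beta (-0.05), 3 of 13 other (-0.08) and 10196 of 21214 named probe sets (-0.01). In FMR4 siRNA and FMR4 pcDNA3.1 9 of 14 alpha probe sets were higher, with medians of 0.10 and 0.04. CTRL pcDNA3.1 minus CTRL siRNA was negative in 12 of 14 alpha probe sets at 6 h (median -0.09) and positive in 13 of 14 at 24 h (median 0.11). The beta medians in these 2 comparisons were -0.06 and 0.01, those of the others -0.08 and 0.02, and those of the mostly silent probe sets -0.04 and -0.01. At 6 h 10 of 13 others, 288 of 432 mostly silent and 11668 of 21214 named probe sets were negative as well. At 24 h 8 of 13 others, 203 of 432 mostly silent and 12020 of 21214 named probe sets were positive. *PCDHGB4* followed with -0.23 at 6 h and 0.12 at 24 h, neither called. These comparisons share arrays, and the medians are descriptions.

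Genes that act on the clustered locus or with protocadherin proteins were taken from lists chosen with earlier results of these data known. Of 25 regulators of locus architecture and repression, 24 had a probe set, all above the 95th percentile of the mostly silent set. In the knockdown at 24 h, where 5.59% of all probe sets were called, 2 were higher and 1 lower, with a median of 0.04 against 0.00 over all named probe sets, and in the knockdown at 6 h and the overexpression 0 were called. *DNMT1*, the maintenance DNA methyltransferase, rose by 0.37 ± 0.06 (limma adjusted p = 0.0004). *REST*, a repressor of neuronal genes, rose by 0.32 ± 0.07 (0.00288). *SUZ12*, a subunit of the Polycomb complex that methylates histone H3, fell by 0.45 ± 0.06 (1.22e-05). Of 30 partners and processing proteins 26 were measured. The Wnt co-receptor *RYK* rose by 0.28 ± 0.06 in the knockdown at 24 h (limma adjusted p = 0.00408), and 0 others were called in any of the 4 comparisons. Of 41 other cadherins and catenins 40 were measured, and the desmosomal *DSC2* fell by 0.25 ± 0.06 at 24 h (0.0196), again the 1 call in the 4 comparisons. Medians of these lists in the knockdown at 24 h were -0.01 and -0.01. Of cell type markers in that comparison, 2 of 8 HEK293-like and 1 of 7 neuron markers were called and 0 of the other lists, beside 5.59% of all probe sets. The mean marker level was 10.002 in CTRL and 10.05 in FMR4 siRNA for the first and 6.65 and 6.56 for the second, and their part in the values above was not tested.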

How the data were processed

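Gene expression was measured in 24 arrays of HEK293T cells, 3 for each of 8 conditions. The deposited values are log2 expression per probe set, which the authors obtained with GC-RMA after subtracting background (software versions not given in the sources used here), and they were used as they are. Of 33297 probe sets, 12083 have no gene in the annotation and were left out. A linear model with 1 mean per condition was fitted to all 24 arrays (limma 3.58.1, R 4.3.3, no trend or robust options, 16 residual degrees of freedom). P-values were two-sided and adjusted by Benjamini-Hochberg over 21214 probe sets in each comparison, at a threshold of 0.05. The tests were checked on simulated data. The number of arrays limits the precision.

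Members and lists were chosen with earlier results of these data known. Members are named if they are among the 3 clustered or 3 other probe sets of lowest p in a knockdown or overexpression comparison, are called in any comparison, or are among the 5 clustered or 5 other of highest mean. From the gene lists, up to 3 called genes are named. Of the cell type markers, counts above the mostly silent set are given. Alternatives were other array sets, trend and robust moderation, array weights, filters, scalings, adjustments, a replicate block and each array left out. Promoters were read from RefSeq, and figures drawn with matplotlib 3.10.9.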

Additional observations from a re-analysis of the deposited data

Results flagged for a closer look

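The time change differed between plasmid and siRNA transfections, by a test of the difference itself added after the values were seen, for 4 of 46 members, where 10.8% of all probe sets were called. For *PCDH17* the difference in log2 change was -0.37 (limma adjusted p = 0.00604), and for *PCDH10* 0.75 (0.0217). For *PCDH1*, a delta1 protocadherin of epithelia, it was 0.25 (limma adjusted p = 0.0293), from siRNA arrays at 7.19 to 7.39 at 6 h and 6.94 to 7.22 at 24 h and plasmid arrays at 7.0 to 7.22 and 7.10 to 7.20. For *PCDHA13* it was 0.28 (limma adjusted p = 0.0473), from siRNA arrays at 7.71 to 7.92 and then 7.63 to 7.79 and plasmid arrays at 7.52 to 7.74 and then 7.52 to 7.93. The *PCDH1* call was lost without 8 of the 24 arrays, taken 1 at a time, and the *PCDHA13* call without 17, with adjusted p up to 0.0596 and 0.0949. The arrays for *PCDH1* were CTRL siRNA 6 h replicate 3, CTRL pcDNA3.1 6 h replicates 1 and 3, FMR4 pcDNA3.1 6 h replicate 3, CTRL siRNA 24 h replicates 1 and 3, FMR4 siRNA 24 h replicate 1 and FMR4 pcDNA3.1 24 h replicate 3. The *PCDHA13* call was kept without FMR4 siRNA 6 h replicate 1 or 3, CTRL siRNA replicate 2 of either time, CTRL pcDNA3.1 6 h replicate 2, or FMR4 pcDNA3.1 replicate 3 of 6 h or replicate 1 of 24 h, and lost without each of the others. It was lost as well with quantile normalization (adjusted p = 0.0736), median centring (0.0733) and all probe sets tested (0.0756).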

How the results depend on the processing

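Alternatives that ended or made the call of a single named member stand beside it above. Trend and robust moderation and a table of probe sets with 1 symbol moved no count by over 1.5 times and no named member across the threshold. The number of members called moved as follows, with the share of all probe sets called beside it. With the arrays compared alone it was 1 in the knockdown at 24 h, 0 for time in FMR4 siRNA, 3 and 2 for the controls at 6 and 24 h and 1 for opposite change at 24 h (4.04, 0.236, 7.48, 5.11 and 2.43% of all). With the 12 arrays of a time or nucleic acid it was 2 in the knockdown at 24 h, 4 for time in CTRL pcDNA3.1, and 0 and 3 for the controls at 6 and 24 h (6.76, 12.2, 0.0566 and 5.68%). With array weights it was 1 in either knockdown, 11 for time in FMR4 siRNA, 5 in CTRL pcDNA3.1 and 6 in FMR4 pcDNA3.1, 5 and 3 for the controls at 6 and 24 h, 2 for the knockdown difference between times, 7 for time over all conditions and 8 for the time difference between nucleic acids (0.58, 8.58, 22, 16, 16.1, 17.6, 10, 5.02, 36.6 and 25.6%). Without dim probe sets it was 5 for time in FMR4 siRNA and 1 for the controls at 24 h (21 and 6.05%), and with quantile or median scaling 5 for time in FMR4 siRNA (15.9 and 16.3%). With all probe sets it was 1 for time in FMR4 pcDNA3.1 (3.27%), and with adjustment over 4 comparisons 1 in the overexpression at 6 h (0.0189%). With the replicate number as a block it was 5 for time in FMR4 siRNA and 1 for the controls at 24 h (15.8 and 3.42%), and the call of *PCDHA13* was lost (adjusted p = 0.0528). Correlations between arrays of the same number ran from -0.37 to 0.46. They were not set against pairs of different numbers, so they cannot decide whether the replicates are paired. The causes were not tested.

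With 1 array left out the number ranged from 0 to 2 in the knockdown and the controls at 6 h, 3 to 4 for time in CTRL siRNA, 3 to 7 in FMR4 siRNA, 0 to 2 in CTRL pcDNA3.1 and 0 to 3 in FMR4 pcDNA3.1. It was 0 to 1 for the knockdown difference between times and for opposite change at 6 h, 4 to 6 for time over all conditions and 2 to 6 for the time difference between nucleic acids. *PCDH10* in the knockdown at 6 h ranged from -0.69 to 0.057, reversed without FMR4 siRNA 6 h replicate 1. Leaving out dim probe sets, those not above the upper quartile of the mostly silent set, kept 2 of 18 beta and 10 of 13 other probe sets. The median of those 2 beta probe sets, *PCDHB2* and *PCDHB15*, was 0.11 and 0.043 in the 6 and 24 h knockdown. In the overexpression it was 0.034 and -0.034. So few probe sets do not describe the beta class. The median of the 10 others was 0.053 in the 24 h knockdown. With 1 array left out, the median of the others ranged from -0.028 to 0.061 in the knockdown at 6 h. The alpha median ranged from 0.0014 to 0.10 and from -0.077 to 0.032 in the overexpression at 6 and 24 h, and the beta median from -0.052 to 0.047 and from -0.029 to 0.041. Signal near background limits what the beta probe sets can show.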
